A study of Mus musculus with 12 samples.

Results

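The genes that present antigen through the major histocompatibility complex (MHC) were examined in RNA from mouse heart muscle. They were chosen by symbol: every gene whose symbol starts with H2-, the mouse MHC prefix, together with B2m, Cd74, Ciita, Nlrc5, Tap1, Tap2 and Tapbp. This rule took 52 of the 33641 gene symbols measured. Of the 52, 28 had a value of 1 TPM or more in 3 or more of the 12 libraries and were tested. TPM is the share of a library taken by a transcript, scaled to the same total in all libraries. H2-Ke6 is among them by its name alone, since it encodes a hydroxysteroid dehydrogenase and no MHC chain.

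The libraries came from myocardium of 12 male C57BL/6 wild-type mice of about 16 weeks, in 4 groups of 3. Surgery had either induced a myocardial infarction (MI) or was a sham procedure. From 2 weeks after surgery, at about 10 weeks of age, they received weekly intraperitoneal prednisone, a synthetic glucocorticoid, at 1 mg/kg, or vehicle, for 6 weeks. Per the labels, the drug was given at lights-on and hearts were collected 24 hours after its last dose. All groups therefore share the strain, the sex, an operation and weekly treatment. The position of the tissue relative to the infarct is not given in the sources used here. The mice are numbered 1 to 3 within each group by the titles.

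MHC class I molecules pair a heavy chain with the light chain B2m and show peptides from inside the cell to CD8 T cells. The TAP transporter brings those peptides into the endoplasmic reticulum, and tapasin, the product of Tapbp, holds empty class I molecules there until a peptide binds. Class II molecules pair an alpha with a beta chain, are guided by the invariant chain Cd74, and show peptides from engulfed material to CD4 T cells. Nearly all nucleated cells carry class I, while class II is largely a feature of macrophages, dendritic cells and B cells. Nlrc5 and Ciita are the transactivators of the class I and class II genes. They act through a shared promoter module, in which an X box bound by RFX and CREB-type factors lies next to a Y box, a CCAAT sequence bound by NF-Y.

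The promoter region searched for this module is shown for 6 of the genes that the results turn on. Any part of the module in the MHC values was not tested. Sequences are the 250 bases before the RefSeq start site, on the strand of the gene, on GRCm38.p6. RefSeq windows were matched for 20 of the 28 genes. Capitals mark the letters found on either strand for 5 motifs: CCAAT (the Y box), TGANGC (core of the X2 box), AGNAAC (core of the X1 box), a kappa B site (GGGA, any base, T, any 2 bases, CC) and the core of an interferon response element (GAAA, any 2 bases, GAAA). Motifs may overlap.
H2-K1: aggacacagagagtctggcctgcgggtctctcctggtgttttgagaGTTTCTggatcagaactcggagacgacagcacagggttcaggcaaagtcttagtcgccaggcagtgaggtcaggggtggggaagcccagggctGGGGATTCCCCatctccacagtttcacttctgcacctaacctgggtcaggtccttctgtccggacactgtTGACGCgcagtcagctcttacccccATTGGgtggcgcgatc
H2-D1: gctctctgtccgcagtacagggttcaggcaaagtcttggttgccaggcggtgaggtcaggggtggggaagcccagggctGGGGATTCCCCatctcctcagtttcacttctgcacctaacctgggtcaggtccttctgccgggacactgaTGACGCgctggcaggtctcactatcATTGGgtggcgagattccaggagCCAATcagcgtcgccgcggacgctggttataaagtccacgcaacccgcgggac
B2m: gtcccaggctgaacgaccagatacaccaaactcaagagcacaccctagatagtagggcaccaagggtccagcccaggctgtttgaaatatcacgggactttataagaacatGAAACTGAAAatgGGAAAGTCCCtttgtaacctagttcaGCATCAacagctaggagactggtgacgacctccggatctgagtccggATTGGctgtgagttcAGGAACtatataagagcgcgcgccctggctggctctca
Tapbp: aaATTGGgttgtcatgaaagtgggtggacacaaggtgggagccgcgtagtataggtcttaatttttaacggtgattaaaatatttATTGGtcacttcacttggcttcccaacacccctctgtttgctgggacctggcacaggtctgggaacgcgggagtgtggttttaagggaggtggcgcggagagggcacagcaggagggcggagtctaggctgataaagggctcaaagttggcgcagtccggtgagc
H2-Eb1: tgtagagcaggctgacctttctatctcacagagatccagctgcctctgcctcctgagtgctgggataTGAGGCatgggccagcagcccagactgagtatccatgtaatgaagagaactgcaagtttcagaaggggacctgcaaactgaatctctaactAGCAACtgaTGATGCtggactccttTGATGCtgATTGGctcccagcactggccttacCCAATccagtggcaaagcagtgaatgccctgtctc
H2-Ob: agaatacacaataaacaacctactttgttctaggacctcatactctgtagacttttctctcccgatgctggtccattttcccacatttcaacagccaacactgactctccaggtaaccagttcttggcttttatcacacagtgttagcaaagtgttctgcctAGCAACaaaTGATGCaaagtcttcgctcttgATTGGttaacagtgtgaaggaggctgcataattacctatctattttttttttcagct
The windows lie at chr17:34000348-34000597 on the minus strand (H2-K1), chr17:35262844-35263093 (H2-D1), chr2:122147437-122147686 (B2m), chr17:33919228-33919477 (Tapbp), chr17:34305617-34305866 (H2-Eb1) and chr17:34238655-34238904 (H2-Ob), the last 5 on the plus strand. In H2-K1, H2-D1, H2-Eb1 and H2-Ob, TGANGC preceded a CCAAT on the opposite strand, read here as ATTGG, with first bases 25, 25, 24 and 22 apart. H2-M3, H2-DMb1 and H2-DMb2 held the same arrangement, so that 7 of the 20 windows (35.0%) had it, against 39 of 27025 RefSeq windows of the same length (0.144%). This arrangement was defined after the sequences had been seen. CCAAT alone was in 18 of the 20 windows, against 34.5% of all windows. The kappa B letters were in 9 of 20, against 3.40%, and the interferon response core was in 3 of 20 (B2m, H2-T23 and H2-T22), against 3.04%. TGANGC was found in 13 of 20 windows against 37.4%, and AGNAAC in 9 of 20 against 42.5%. The Tapbp window held 2 copies of ATTGG and none of the other 4 motifs. These are matches of letters and not measured binding.

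MI vehicle mouse 3 stood apart from the other libraries before any comparison was made. Its summed T cell markers (8 genes) reached 721 TPM, against 2.70 to 35.7 in the other 11 libraries, and its summed B cell markers (6 genes) 145 TPM against 3.18 to 19.8. None of these markers was at 0 in every library of a group. Ptprc, which encodes the leukocyte antigen CD45, was at 70.0 TPM against 1.74 to 6.53. A list of 9 genes of developing T cells, written after the data were seen, summed to 593 TPM, against 0.927 to 27.9 elsewhere, with the second highest value in sham vehicle mouse 2. It included Dntt at 136 TPM and Rag1 at 88.0 TPM, which act in the rearrangement of antigen receptor genes. Adipocyte markers (4 genes) summed to 1450 TPM against 14.9 to 862. Between 11690 and 14307 genes reached 1 TPM per library, most of them in this one, and the cardiomyocyte list (7 genes, all tested) summed to between 20940 TPM, in this mouse, and 35000 TPM. The part of these values in the MHC results was not tested, and the calls on the MI vehicle group are given with and without this mouse.

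Among the class I genes the classical heavy chains H2-K1 and H2-D1 were abundant in every heart. H2-K1 was at 181, 158 and 93.5 TPM in sham vehicle mice 1 to 3 and at 153, 85.2 and 145 TPM in sham prednisone. After MI it was at 196, 163 and 493 TPM with vehicle and at 168, 196 and 108 TPM with prednisone. MI vehicle mouse 3 was the highest by far, and the other 2 mice of its group lay at or near the upper end of sham vehicle, so that the groups overlapped. H2-D1 was at 168, 161 and 106 TPM in sham vehicle, at 159, 103 and 156 TPM in sham prednisone, at 211, 189 and 474 TPM in MI vehicle and at 158, 191 and 116 TPM in MI prednisone. All 3 MI vehicle mice were above all 3 sham vehicle mice for this gene. The ratio of H2-K1 to H2-D1 stayed between 0.827 and 1.08 in the 12 libraries, while each gene itself ranged more than 4-fold.

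The light chain B2m was at 410, 356 and 228 TPM in sham vehicle and at 339, 217 and 307 TPM in sham prednisone. It was at 479, 442 and 1003 TPM in MI vehicle and at 340, 322 and 265 TPM in MI prednisone. Every MI vehicle mouse was above every mouse of the sham vehicle and MI prednisone groups. B2m over the sum of H2-K1 and H2-D1 ranged from 0.831 in MI prednisone mouse 2 to 1.25 in MI vehicle mouse 2.

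**Figure D1:**
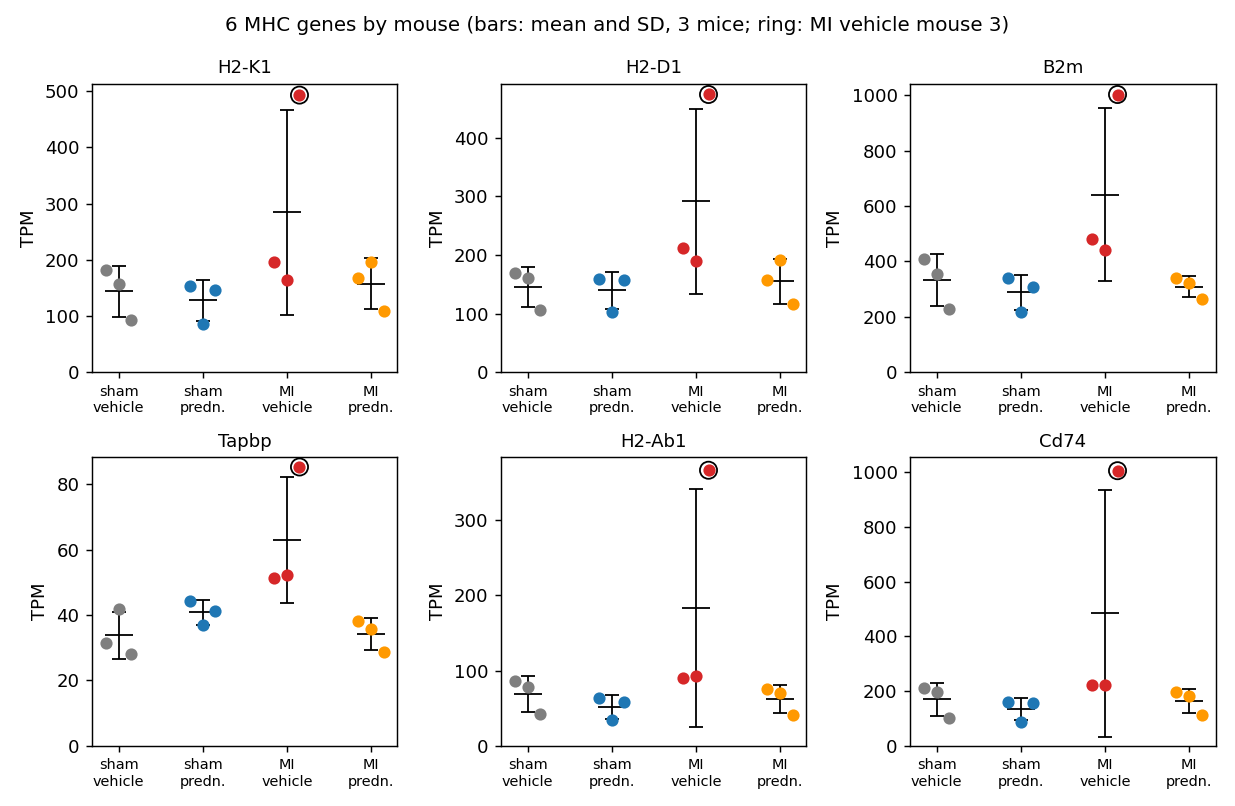
TPM of 6 MHC genes in each mouse, by group, on linear axes from 0. Points are mice, horizontal bars and whiskers the mean and SD of 3 mice, and the ring marks MI vehicle mouse 3, which is the highest library in each panel, at 1003 TPM for B2m and 1005 TPM for Cd74.

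Of the loading genes, Tapbp moved most clearly with the groups. It was at 31.5, 42.0 and 28.0 TPM in sham vehicle, at 44.5, 36.9 and 41.3 TPM in sham prednisone, at 51.5, 52.4 and 85.3 TPM in MI vehicle and at 38.1, 35.8 and 28.6 TPM in MI prednisone. The 3 MI vehicle mice were the 3 highest of all 12. The transporter subunit Tap1 ranged from 1.94 TPM in sham prednisone mouse 2 to 25.4 TPM in MI vehicle mouse 3, and the next highest value was in MI prednisone mouse 2. Its partner Tap2 ranged from 9.12 to 15.2 TPM outside MI vehicle mouse 3, where it was at 37.1 TPM. The transactivator Nlrc5 was low, from 1.52 to 4.59 TPM in 11 libraries and 5.94 TPM in MI vehicle mouse 3.

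Of the 30 nonclassical class I genes and pseudogenes, 11 were tested. H2-T23, which encodes Qa-1, a ligand of an inhibitory receptor on natural killer cells, was at 24.6, 26.6 and 17.8 TPM in sham vehicle and at 34.5, 36.1 and 83.4 TPM in MI vehicle. It was at 24.5, 15.3 and 26.7 TPM in sham prednisone and at 27.7, 32.1 and 19.6 TPM in MI prednisone. The MI vehicle mice were the 3 highest for H2-T23. H2-M3, which presents formylated peptides, was at 3.22 to 4.56 TPM in the 6 sham hearts and at 4.60 to 12.5 TPM in the 6 MI hearts, without overlap. H2-Q4 ranged from 14.7 to 73.6 TPM, H2-Q6 from 5.16 to 45.2 TPM, H2-Q7 from 4.26 to 51.1 TPM and H2-T22 from 10.2 to 45.9 TPM, each highest in MI vehicle mouse 3 and lowest in sham prednisone mouse 2. H2-T24 was at 3.08 to 3.36 TPM in sham vehicle and at 4.28 to 5.00 TPM in sham prednisone, which did not overlap.

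A few class I genes were also high in MI prednisone mice. H2-K2, which GENCODE M21 annotates as a transcribed unprocessed pseudogene, was highest in MI prednisone mice 1 and 2, at 4.73 and 4.88 TPM, and at 2.44 TPM in mouse 3, against 1.31 to 3.34 TPM in the other 9 libraries. H2-Q5 was highest in MI prednisone mouse 2, at 16.3 TPM, against 2.15 to 10.5 TPM in the other 11. H2-Q10 was at 8.89 TPM in that mouse and at 9.29 TPM in MI vehicle mouse 3, with at most 2.79 TPM elsewhere. H2-T10 was at 2.41 TPM in the same mouse, at 0.283 to 1.59 TPM in 10 others and at 8.43 TPM in MI vehicle mouse 3. Members of this family share sequence, which can move reads between them. Of the 31-base words in each gene's most abundant transcript, 63.8% in H2-T22, 57.9% in H2-T10, 54.4% in H2-Q5, 42.9% in H2-Q6, 26.0% in H2-K2 and 23.3% in H2-K1 were also in another gene of the 52, against 0.279% in Tapbp and 0 in B2m and Cd74. H2-DMb1 and H2-DMb2 shared 37.6% and 37.1% of theirs. Values of the genes with large shares are uncertain for that reason.

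Class II genes ranged more widely between mice than the classical class I chains. H2-Ab1, the beta chain of the I-A molecule, was at 85.7, 78.6 and 41.7 TPM in sham vehicle, at 63.5, 34.0 and 58.6 TPM in sham prednisone, at 90.2, 93.1 and 367 TPM in MI vehicle and at 75.9, 70.2 and 40.3 TPM in MI prednisone. Its alpha chain H2-Aa was at 104, 87.1 and 47.2 TPM in sham vehicle, at 71.7, 38.9 and 64.1 TPM in sham prednisone, at 96.9, 112 and 394 TPM in MI vehicle and at 88.9, 86.0 and 40.3 TPM in MI prednisone. Every MI vehicle mouse was above every sham vehicle mouse for H2-Ab1, while for H2-Aa MI vehicle mouse 1 was below sham vehicle mouse 1. Sham vehicle mouse 3 was the lowest of these 6 mice for both chains, and MI vehicle mouse 3 was the highest. H2-Eb1, the beta chain of I-E, ranged from 32.5 to 90.5 TPM in 11 libraries and was at 311 TPM in MI vehicle mouse 3. Its alpha chain is listed as the pseudogene H2-Ea-ps in this strain and was at 0 to 3.35 TPM.

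The invariant chain Cd74 was at 211, 195 and 102 TPM in sham vehicle and at 159, 87.2 and 156 TPM in sham prednisone. It was at 221, 224 and 1005 TPM in MI vehicle and at 196, 183 and 112 TPM in MI prednisone. The chains kept close proportions across mice: H2-Aa over H2-Ab1 was between 1.00 and 1.23, H2-Eb1 over H2-Ab1 between 0.848 and 1.10, and Cd74 over H2-Ab1 between 2.40 and 2.78. Class II over class I was less fixed, since H2-Ab1 over H2-K1 ranged from 0.358 to 0.743. The highest ratio was in MI vehicle mouse 3 and the next, 0.570, in MI vehicle mouse 2.

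Peptide exchange on class II is catalysed by H2-DM and restrained by H2-DO, which is largely a B cell and dendritic cell protein. H2-DMa was at 2.69 to 7.84 TPM in 11 libraries and at 28.6 TPM in MI vehicle mouse 3, and H2-DMb1 at 2.54 to 9.02 TPM and 25.8 TPM. H2-DMb2 was at 0.129 to 2.74 TPM and 30.3 TPM, H2-Oa at 0.0543 to 1.22 TPM and 13.7 TPM, and H2-Ob at 0.340 to 2.62 TPM and 18.1 TPM. H2-Ob over H2-Ab1 was 0.0494 in MI vehicle mouse 3 and 0.00814 to 0.0345 in the others. The class II transactivator Ciita was at 7.37 TPM in that mouse, at 1.03 TPM in MI vehicle mouse 1 and below 1 TPM in the other 10, so that it was not tested.

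Of the 24 genes below the filter, 6 (H2-M1, H2-M10.3, H2-M10.5, H2-M10.5-ps1, H2-M10.6 and H2-Pb) were listed at 0 in all 12 libraries. H2-Q2 was at 17.4 TPM, H2-Eb2 at 4.80 TPM, H2-T-ps at 4.76 TPM and H2-M2 at 4.67 TPM in MI vehicle mouse 3, and each was below 1 TPM in the other 11. H2-Q1 reached 1.14 TPM in 1 library. H2-Bl, H2-M10.1, H2-M10.2, H2-M10.4, H2-M11, H2-M5, H2-M6-ps, H2-M9, H2-Pa, H2-Q3 and H2-T3 stayed below 1 TPM in every library. The number of reads is not known from TPM, so no detection limit could be given for values at 0.

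The departure of MI vehicle mouse 3 from mice 1 and 2 of its own group differed in size between the genes. Over the mean of those 2 mice its TPM was 3.08 to 15.7 times higher for the 5 peptide exchange genes, 4.51 times for Cd74, 3.53, 3.78 and 4 times for H2-Eb1, H2-Aa and H2-Ab1, 2.37 and 2.75 times for H2-D1 and H2-K1, 2.18 times for B2m and 1.64 times for Tapbp. Of the nonclassical class I genes the lowest ratio was 1.80, and H2-T10 and H2-Q10 (5.68 times) lay above the class II chains. Tap1 was 3.93 times higher, so the ranges of the roles overlapped. H2-Ke6, which presents nothing, was 1.08 times higher. The median ratio was 2.91 over the 28 genes and 1.46 over all 13158 tested genes. After the libraries were rescaled to the median gene, the median log2 difference was 0.90 over the 28 and -0.03 over all. This mouse held the highest of the 12 values in 25 of the 28 genes (89.3%), against 66.1% of all tested genes. These ratios describe 1 library and have no replicate error.

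**Figure D2:**
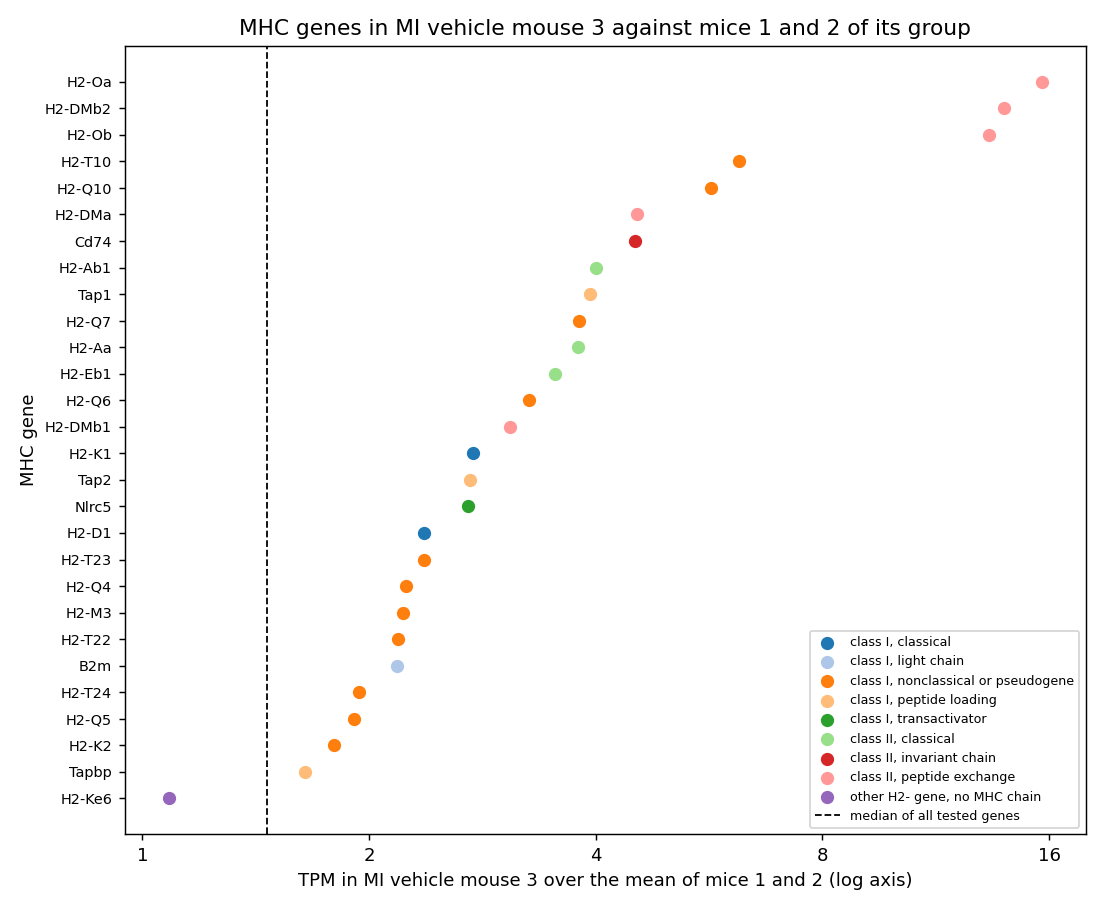
Ratio of TPM in MI vehicle mouse 3 to the mean of MI vehicle mice 1 and 2, on a log axis, for each of the 28 tested MHC genes, coloured by role. The dashed line is the median of all 13158 tested genes, 1.46. H2-Oa, which reached 1 TPM in only 3 libraries, lies farthest from the line at 15.7, and H2-Ke6, at 1.08, is the only gene to the left of the line.

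The remaining 3 groups also had 1 mouse each in which most MHC genes were low. Sham vehicle mouse 3 was the lowest of its group in 25 of 28 genes (89.3%, against 48.0% of all tested genes) and sham prednisone mouse 2 in 27 of 28 (96.4% against 45.6%). MI prednisone mouse 3 was the lowest in 25 of 28 (89.3% against 44.9%). The summed class II chains H2-Aa, H2-Ab1 and H2-Eb1 were at 127 TPM in sham vehicle mouse 3, against 272 and 240 TPM in mice 1 and 2. They were at 105 TPM in sham prednisone mouse 2, against 194 and 178 TPM, and at 125 TPM in MI prednisone mouse 3, against 237 and 229 TPM. The same 3 mice had the lowest B cell marker sums of their groups, at 3.18, 4.57 and 8.03 TPM, and the lowest macrophage marker sums (10 genes), at 316, 357 and 350 TPM. These mice were also lowest for fibroblast (360, 410 and 285 TPM) and endothelial markers (157, 181 and 183 TPM). The same held for the T cell, dendritic cell and adipocyte sums, the last by little in sham prednisone (126.4 TPM against 127.6 and 140.3 TPM). For mural cell markers these mice were the highest of their groups, at 160, 163 and 177 TPM. The same 3 mice also had the highest share of TPM in mitochondrial genes of their groups, at 42.0%, 37.2% and 35.9%, against 36.2% and 36.5%, 35.6% and 32.4%, and 24.7% and 21.6% in the other mice. MI vehicle mouse 3 had the lowest share of its group, at 23.1% against 35.2% and 36.7%. The part of these cells and of the mitochondrial share in the MHC values was not tested. In bulk tissue, fewer cells of a type and less RNA per cell cannot be told apart.

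The spread between mice of a group was larger for MHC genes than for most genes. The median SD of log2(TPM + 1) within a group was 0.463 over the 28 genes in sham vehicle, against 0.141 over all tested genes. It was 0.372 against 0.123 in sham prednisone, 0.867 against 0.332 in MI vehicle and 0.384 against 0.187 in MI prednisone. In the MI vehicle group the smallest SD was that of H2-Ke6, at 0.09, and the largest that of H2-DMb2, at 1.94.

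**Figure D3:**
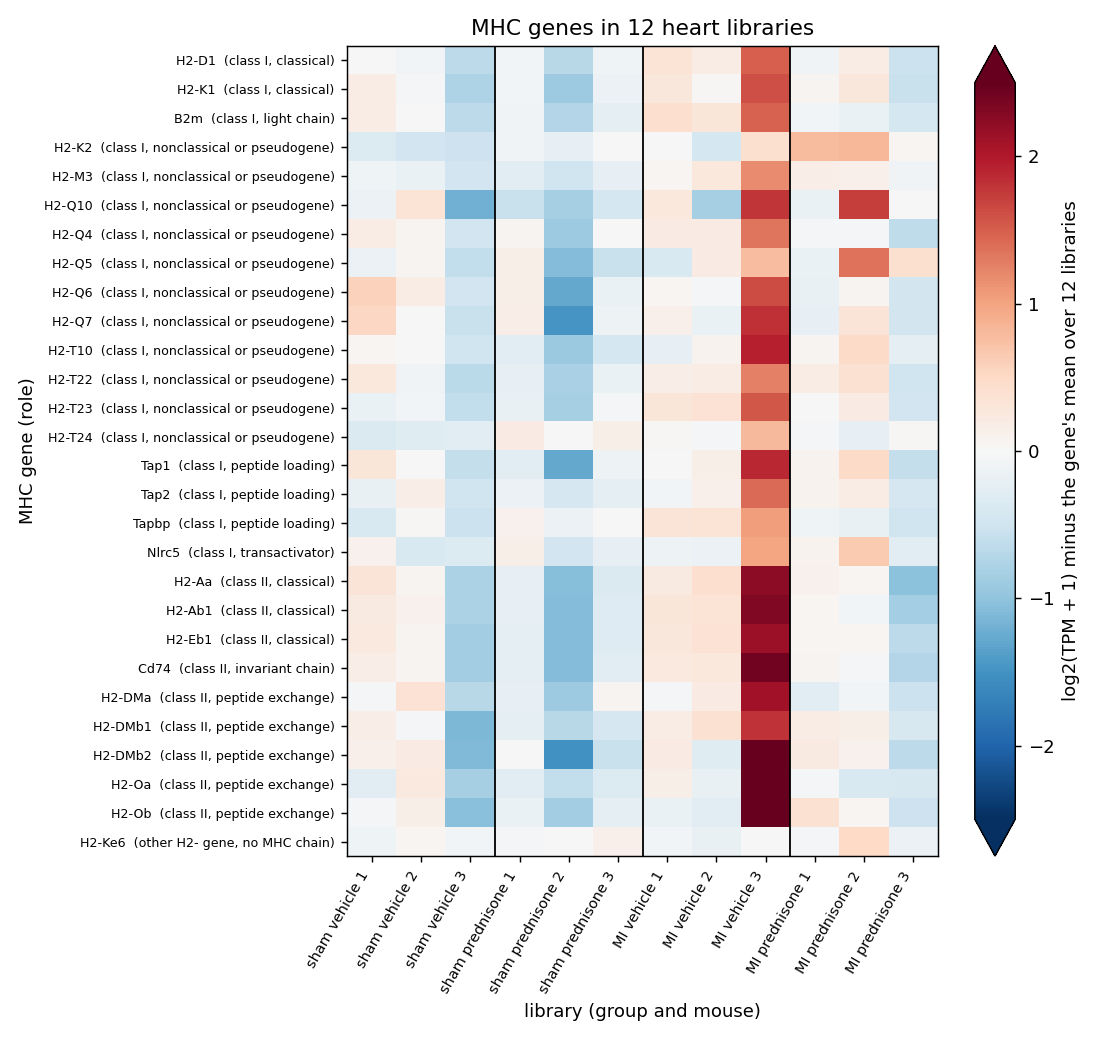
Heat map of the 28 tested MHC genes (rows, with their role) in the 12 libraries (columns, by group and mouse). Colour gives log2(TPM + 1) minus the gene's mean over the 12 libraries, blue below the mean and red above it; MI vehicle mouse 3 is red in all but H2-Ke6, and sham vehicle mouse 3, sham prednisone mouse 2 and MI prednisone mouse 3 are the bluest of their groups in most genes.

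Infarction without the drug was examined first, in the 6 mice that received vehicle. Of the 28 tested genes only Tapbp rose, by 0.86 ± 0.21 on the log2 scale (SE, 3 against 3 mice; limma, Benjamini-Hochberg adjusted p = 0.0249 over all tested genes). That is 3.57% of the MHC genes, against 15.1% of all tested genes called higher and 16.0% called in either direction. At an unadjusted p under 0.05, 10 of the 28 passed (35.7%), against 42.2% of all tested genes, and without MI vehicle mouse 3 4 passed (14.3%), against 27.3%. Of all tested genes 1981 were called higher and 119 lower, while after rescaling to the median gene (median-ratio scaling) 490 were higher and 489 lower (7.44% in all) and none of the 28 was called. Without MI vehicle mouse 3 the difference in Tapbp was 0.63 ± 0.17 with a limma adjusted p of 0.0536, and none of the 28 was called, against 7.34% of all tested genes. P-values here and in the comparisons below rest on a spread between mice that is pooled over all 4 groups of 12 libraries. With the spread taken from only the 6 mice compared here, 2 of the 13158 tested genes were called and none of the 28.

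Apart from H2-Ke6, at -0.04, the other MHC genes were higher on average in MI vehicle, and none of them passed the test. The 4 largest differences were in class II genes, with 1.32 ± 0.79 for H2-DMb2, 1.27 ± 0.65 for H2-Oa, 1.19 ± 0.53 for Cd74 and 1.14 ± 0.51 for H2-Ab1 on the log2 scale, at limma adjusted p of 0.204, 0.149, 0.114 and 0.112. H2-Oa reached 1 TPM in only 3 libraries, sham vehicle mouse 2 and MI vehicle mice 1 and 3, so it passed the filter only through the MI vehicle group. Without mouse 3 the 4 differences were 0.21, 0.27, 0.46 and 0.48. H2-T23 differed by 1.02 ± 0.33 (limma adjusted p = 0.0562) with it and by 0.62 ± 0.26 (0.158) without it, and B2m by 0.89 ± 0.31 (0.0660) and by 0.52 ± 0.25 (0.208). The median over the 28 genes was 0.81 with mouse 3 and 0.28 without it, against 0.39 and 0.19 over all tested genes. When libraries were rescaled to the median gene, these medians were 0.43 over the 28 genes and 0.02 over all, and Tapbp differed by 0.43 ± 0.12 (limma adjusted p = 0.0604). With both changes together, the median of the 28 was 0.08, with 17 genes above 0 and 11 below. In 11 of the 28 genes (39.3%) every MI mouse was above every sham mouse, against 40.8% of all tested genes. Leaving out MI vehicle mouse 3 could not change this count, because that mouse was the highest of its group in all 28 genes. The share of all tested genes was then 41.5%. The 11 genes were B2m, Cd74, H2-Ab1, H2-D1, H2-DMb1, H2-Eb1, H2-M3, H2-Q4, H2-T23, H2-T24 and Tapbp. With 3 mice on each side, the smallest two-sided p of an exact permutation test is 0.1, and none is given.

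Between MI mice given prednisone and MI mice given vehicle, Tapbp and B2m fell, by 0.83 ± 0.21 and 0.96 ± 0.31 on the log2 scale (SE, 3 against 3 mice; limma adjusted p = 0.0105 and 0.0326). These are 7.14% of the MHC genes, against 34.9% of all tested genes called lower and 37.4% called in either direction. At an unadjusted p under 0.05, 10 of the 28 passed (35.7%), against 49.1% of all tested genes, and without MI vehicle mouse 3 3 passed (10.7%), against 43.2%. Of all tested genes 329 were called higher and 4588 lower, while after rescaling to the median gene 1917 were higher and 1870 lower. Without MI vehicle mouse 3, Tapbp still fell, by 0.60 ± 0.17 (limma adjusted p = 0.0231), while B2m differed by -0.58 ± 0.25 (0.0983). In the same fit H2-K2 rose with prednisone, by 0.78 ± 0.23 (limma adjusted p = 0.0254). With all libraries the difference in H2-K2 was 0.58 ± 0.24 (0.0820). Without rescaling, the call for B2m was therefore lost when mouse 3 was left out, and that for H2-K2 appeared. After rescaling with all 12 libraries B2m was not called either (-0.50 ± 0.23, limma adjusted p = 0.132), while H2-K2 was.

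The class II genes were lower on average with prednisone after MI and did not pass the test. The difference was -1.27 ± 0.51 for H2-Ab1 (limma adjusted p = 0.0678), -1.25 ± 0.52 for H2-Aa (0.0756) and -1.21 ± 0.53 for Cd74 (0.0923). Without mouse 3 these values were -0.60, -0.61 and -0.48, while H2-DMb2 was at -0.07 and H2-Ob turned direction, to 0.20. For H2-D1 the difference was -0.81 ± 0.34 (limma adjusted p = 0.0770) and for H2-K1 -0.71 ± 0.41 (0.186), and without mouse 3 they were -0.40 and -0.23. The median over the 28 genes was -0.77 with mouse 3 and -0.17 without it, against -0.41 and -0.22 over all tested genes. After rescaling to the median gene it was -0.32, against -0.02 over all, and with both changes it was 0.07, with 16 genes above 0 and 12 below. The direction of the MHC genes as a whole was therefore not the same without mouse 3 and with rescaling. In the rescaled fit to 12 libraries Tapbp fell, by 0.38 ± 0.12 (limma adjusted p = 0.0405), and H2-K2 and H2-Ke6 rose, by 0.91 ± 0.20 and 0.64 ± 0.16 (0.00791 and 0.0133), against 28.8% of all tested genes. Every prednisone mouse was below every vehicle mouse in 10 of the 28 genes (35.7%), against 42.6% of all tested genes. This count too could not change without MI vehicle mouse 3, the highest of its group in all 28 genes, while the share of all tested genes was then 44.0%. The 10 genes were B2m, Tapbp, H2-Q4 and H2-T23 of class I, and Cd74, H2-Aa, H2-Ab1, H2-Eb1, H2-DMa and H2-DMb1 of class II. MI prednisone values of the classical chains lay within or near the sham range, for example 108 to 196 TPM for H2-K1 against 85.2 to 181 TPM in the 6 sham hearts.

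**Figure D4:**
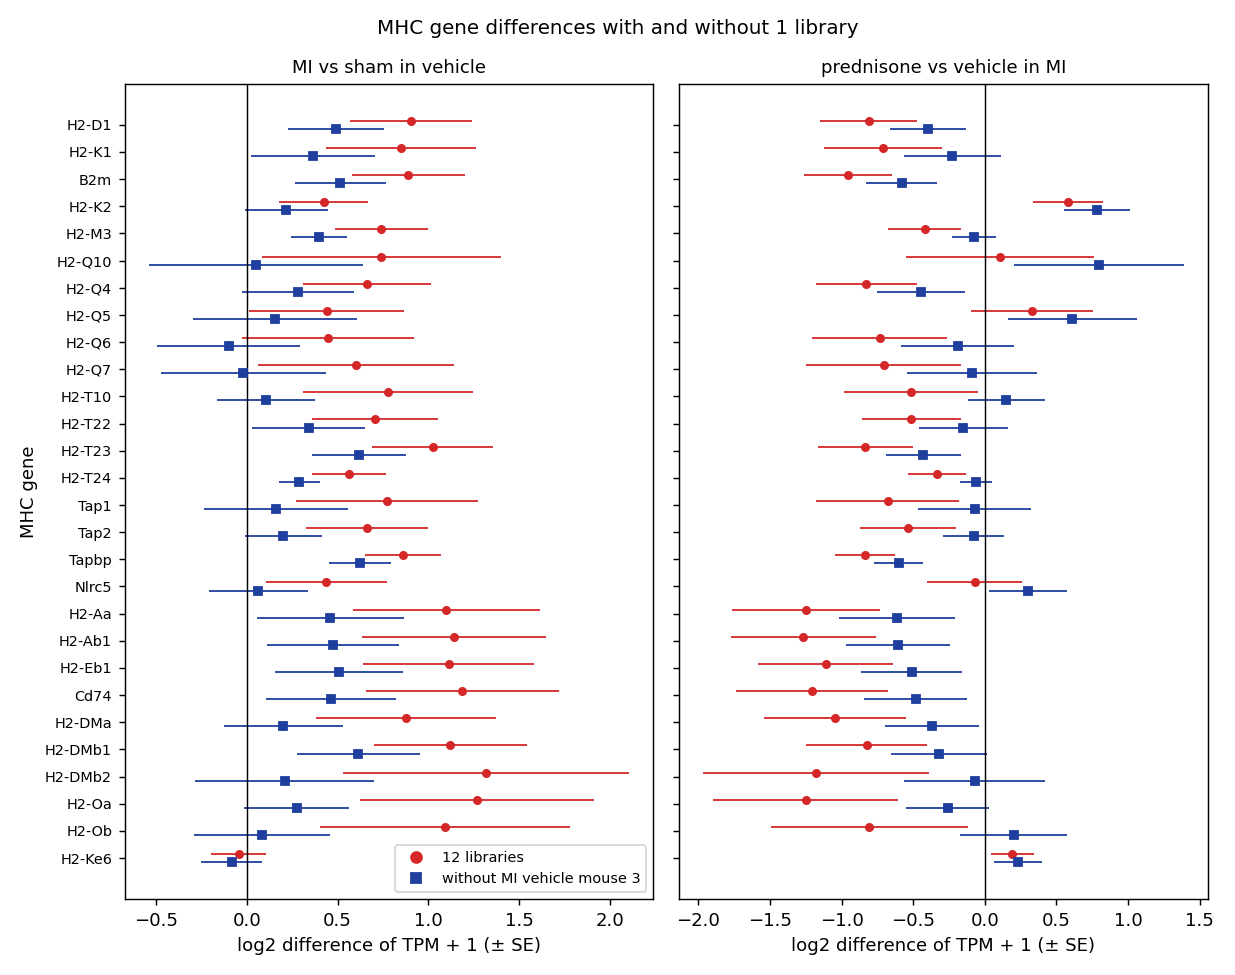
Log2 difference (points) and SE (whiskers) of each tested MHC gene, for MI against sham in vehicle mice (left) and prednisone against vehicle in MI mice (right). Red circles are fits to 12 libraries and blue squares fits without MI vehicle mouse 3; most blue squares lie closer to 0, while Tapbp goes only from 0.86 to 0.63 and from -0.83 to -0.60.

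In mice given prednisone, MI and sham hearts were compared in the same way, and none of the 28 genes passed the limma test, against 16.8% of all tested genes. At an unadjusted p under 0.05, 2 of the 28 passed (7.14%, against 30.5% of all tested genes), H2-K2 at 0.65 ± 0.24 and H2-Q5 at 1.03 ± 0.43 on the log2 scale (limma adjusted p = 0.0962 and 0.125). With the spread estimated without MI vehicle mouse 3, H2-K2 was called (0.65 ± 0.20, limma adjusted p = 0.0367), against 30.2% of all tested genes. After rescaling to the median gene H2-K2, H2-M3 and H2-Q5 were called, at 0.73 ± 0.20, 0.48 ± 0.15 and 1.13 ± 0.37 (limma adjusted p = 0.0213, 0.0383 and 0.0456), against 26.0% of all tested genes. That rescaling took the calls among all genes from 359 higher and 1854 lower to 1536 and 1881. H2-K2, H2-M3, H2-Q10 and H2-T10 were higher in every MI than in every sham mouse, 14.3% of the 28 against 12.9% of all tested genes. The median difference was 0.30 over the 28 and -0.06 over all. The summed H2-K1 and H2-D1 were at 325, 387 and 224 TPM in MI prednisone and at 312, 188 and 302 TPM in sham prednisone, which overlapped.

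Prednisone against vehicle in sham mice gave no call among the 28 genes by limma, nor did any reach an unadjusted p under 0.05, which 3.56% of all tested genes did. Of all tested genes 0.114% were called, or 0.137% with the spread estimated without MI vehicle mouse 3, when again none of the 28 was. The median difference was -0.19 over the 28 and 0.07 over all tested genes. H2-K2 and H2-T24 were higher in every prednisone than in every vehicle mouse, which is 7.14% of the 28 against 15.6% of all tested genes. Class II chains summed to 272, 240 and 127 TPM with vehicle and to 194, 105 and 178 TPM with prednisone, which overlapped.

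The effect of prednisone differed between MI and sham hearts in Tapbp, by -1.12 ± 0.29 on the log2 scale (limma interaction term, adjusted p = 0.0245). This is 3.57% of the 28 genes, against 20.7% of all tested genes called in the same direction and 21.3% in either, and 2 of the 28 (7.14%) passed at an unadjusted p under 0.05, against 38.5% of all tested genes. Among all genes 71 terms were called above 0 and 2726 below, while after rescaling to the median gene 674 were above and 649 below (10.1% in all) and none of the 28 was called. Without MI vehicle mouse 3 the term for Tapbp was -0.88 ± 0.23 (limma adjusted p = 0.0220), and H2-T24 was called as well, at -0.49 ± 0.15 (0.0393), against 23.5% of all tested genes. At an unadjusted p under 0.05 2 passed in that fit too, against 37.7%. With all libraries the term for H2-T24 was -0.76 ± 0.29 (limma adjusted p = 0.0775). Prednisone moved Tapbp by 0.28 in sham hearts, which did not pass the test, and by -0.83 in MI hearts. The interaction shares its MI vehicle and sham vehicle mice with the other comparisons and is no separate evidence for them.

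The transcripts of Tapbp did not move alike. Its most abundant transcript (ENSMUST00000025161) was at 23.7, 26.8 and 20.2 TPM in sham vehicle, at 25.3, 20.1 and 24.8 TPM in sham prednisone, at 29.7, 30.8 and 57.6 TPM in MI vehicle and at 32.6, 30.0 and 21.9 TPM in MI prednisone. The MI groups overlapped for this transcript, and MI prednisone mice 1 and 2 were above the sham mice. Tested alone it was not called, at 0.66 for MI against sham with vehicle (limma adjusted p = 0.0809) and -0.42 for prednisone against vehicle after MI (0.181). A second transcript (ENSMUST00000172619) was listed at 0 in all 3 MI prednisone mice and at 3.77 to 10.5 TPM in MI vehicle. Its values in sham vehicle were 0.181, 5.69 and 0 TPM, and in sham prednisone 9.92, 12.2 and 4.17 TPM. Values at or near 0 were therefore not particular to prednisone after MI. The transcript ENSMUST00000172653 was at 9.59 to 15.3 TPM in MI vehicle and at 4.97 to 6.36 TPM in MI prednisone. How reads were divided between the transcripts is an estimate of the deposited table, so the gene sum and the main transcript are both given.

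Of the other genes of the pathway, a list of 46, 41 were tested. In MI against sham with vehicle 15 of the 41 (36.6%) rose by limma and none fell, against 16.0% of all tested genes called. Without MI vehicle mouse 3, 8 of the 41 (19.5%) rose, against 7.34% of all tested genes, and after rescaling to the median gene 4 did (9.76%), against 7.44%. All 6 genes of class II peptide supply and turnover rose: the proteases Ctss, Ctsl, Ctsb and Lgmn, the thiol reductase Ifi30 and the ubiquitin ligase March1. The first 4 of them were called without mouse 3 too. Ctss, which trims the invariant chain, was at 20.4, 22.2 and 14.5 TPM in sham vehicle and at 34.9, 56.8 and 99.9 TPM in MI vehicle, a rise of 1.59 ± 0.33 on the log2 scale (limma adjusted p = 0.0164), or 1.21 ± 0.28 without mouse 3 (0.0328). All 3 MI hearts were above all 3 sham hearts. After rescaling to the median gene Ctss and Ctsl were called (limma adjusted p = 0.0289 and 0.0381), and the other 4 were higher without passing the test. Of the other lists Calr and Pdia3 (class I folding), Nfya, Ifngr1, Irf2, Cd86 and the class I-like genes Hfe and Procr rose after MI with vehicle, by 0.50 to 1.08 on the log2 scale (limma adjusted p = 0.0234 to 0.0472). Without mouse 3 Pdia3, Nfya, Ifngr1 and Irf2 were still called, and with rescaling Ifngr1 and Irf2.

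After prednisone in MI mice 19 of the 41 pathway genes (46.3%) fell and none rose, against 37.4% of all tested genes. Without mouse 3, 17 (41.5%) fell, against 31.6%. After rescaling to the median gene 10 fell and 2, Psmb10 and Rfxank, rose. Together these are 29.3% of the 41, near the 28.8% of all tested genes called in that fit. Ctss was at 24.9, 18.4 and 16.5 TPM in MI prednisone, below every MI vehicle mouse, and fell by 1.52 ± 0.33 (limma adjusted p = 0.00597), or by 1.14 ± 0.28 without mouse 3 (0.0117). The promoter factors Rfx5, Nfya and Creb1 fell, by 1.01 ± 0.25, 0.95 ± 0.27 and 1.26 ± 0.34 (limma adjusted p = 0.00954, 0.0180 and 0.0147). Without mouse 3 they fell by 0.67 ± 0.13, 0.55 ± 0.11 and 0.76 ± 0.17 (0.00456, 0.00540 and 0.00878), and all 3 were called after rescaling. Nfya, a subunit of NF-Y, was at 9.47, 9.94 and 23.7 TPM in MI vehicle and at 6.45, 6.30 and 6.22 TPM in MI prednisone. In interferon signalling Ifngr1, Ifngr2, Jak1, Jak2 and Irf2 fell, and without mouse 3 as well, while with rescaling Jak1, Jak2 and Irf2 did. Irf2, an interferon regulatory factor, fell by 1.30 ± 0.26 (limma adjusted p = 0.00388; without mouse 3 by 0.96 ± 0.17, 0.00296), from 14.5, 13.0 and 28.9 TPM to 6.04, 6.67 and 7.06 TPM. Erap1, the aminopeptidase that trims class I peptides, fell by 1.15 ± 0.20 (limma adjusted p = 0.00236), or by 0.87 ± 0.11 without mouse 3 (0.00101). The chaperones Canx and Pdia3 fell, by 0.63 ± 0.17 and 0.60 ± 0.19 (limma adjusted p = 0.0136 and 0.0318). Without mouse 3 Canx fell by 0.47 ± 0.15 (0.0373) and Pdia3 was at -0.34 ± 0.12 (0.0595), and neither was called with rescaling. The class I-like genes Mr1, Hfe and Procr fell, by 0.78 ± 0.26, 0.56 ± 0.15 and 0.90 ± 0.28 (limma adjusted p = 0.0386, 0.0128 and 0.0290). Without mouse 3 Mr1 and Hfe were called, at -0.40 ± 0.14 and -0.52 ± 0.16 (0.0491 and 0.0296), and with rescaling none of the 3 was.

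Of the 5 immunoproteasome genes only Psmb10 was called in the fit to 12 libraries without rescaling, higher after MI with vehicle, by 0.71 ± 0.20, and with prednisone, by 0.80 ± 0.20 (limma adjusted p = 0.0381 and 0.0186). Of all tested genes 16.0% and 16.8% were called in these 2 comparisons, in either direction. Psmb10 was at 31.3 to 37.5 TPM in sham vehicle, 46.6 to 75.0 TPM in MI vehicle and 48.0 to 68.6 TPM in MI prednisone, and differed between the last 2 groups by 0.05 ± 0.20, or by 0.50 ± 0.13 after rescaling to the median gene (limma adjusted p = 0.0186). Without MI vehicle mouse 3 the vehicle difference was 0.53 ± 0.19 (limma adjusted p = 0.102). Of 16 genes induced by interferon gamma, only Cxcl10 rose after MI with vehicle, by 1.10 ± 0.27 (limma adjusted p = 0.0267), against 15.1% of all tested genes. None did without mouse 3, against 7.34% of all tested genes called in either direction. With prednisone after MI 5 of the 16 fell, Gbp2, Gbp5, Gbp7, Gbp9 and Cxcl10, against 34.9% of all tested genes. Without mouse 3 Gbp2 and Gbp7 fell, and with rescaling Gbp2, Gbp7 and Cxcl10, against 31.6% and 28.8% of all tested genes called in either direction. Gbp7, an interferon-induced GTPase, was at 5.41, 5.66 and 8.63 TPM in MI vehicle and at 2.42, 2.86 and 2.08 TPM in MI prednisone, and fell by 1.11 ± 0.20 (limma adjusted p = 0.00270), or by 0.93 ± 0.18 without mouse 3 (0.00436). Ifng itself was at or below 0.491 TPM in every library. In sham mice none of the 41 passed the test for prednisone. Between MI and sham mice given prednisone 5 of the 41 (12.2%) were called, against 16.8% of all tested genes. Psmb10 rose, and Erap1, Canx, Ifngr2 and Jak1 fell. After rescaling to the median gene 8 (19.5%) were called in that comparison, against 26.0%, with Psmb9 higher beside Psmb10.

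Marker lists of other cell types moved between the groups beside these values. Macrophage markers (10 genes) summed to 379, 442 and 316 TPM in sham vehicle, to 692, 956 and 1459 TPM in MI vehicle and to 627, 605 and 350 TPM in MI prednisone. The MI vehicle sums were above all others. In limma 9 of the 10 rose after MI with vehicle and 8 of the 10 fell with prednisone after MI, against 15.1% and 34.9% of all tested genes. Without mouse 3 these counts were 7 and 6, against 7.34% and 31.6% called in either direction, and with rescaling 5 and 4, against 7.44% and 28.8%. In MI vehicle mice 1 and 2 the class II sums were 273 and 295 TPM, against 272, 240 and 127 TPM in the sham vehicle mice. B cell markers summed to 16.4 and 11.6 TPM in those MI mice and to 13.4, 14.9 and 3.18 TPM in sham vehicle. Dendritic cell markers (7 genes, 3 of them tested) summed to 4.90 to 8.15 TPM in 11 libraries and to 22.7 TPM in MI vehicle mouse 3.

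Markers of cells outside the blood lineage moved too. Fibroblast markers (6 genes) summed to 360 to 490 TPM in the 6 sham hearts, to 825, 1015 and 920 TPM in MI vehicle and to 483, 359 and 285 TPM in MI prednisone. All 6 rose after MI with vehicle and all 6 fell with prednisone after MI by limma. Without mouse 3 both counts were 5, and with rescaling they were 2 and 5. Of the 6 endothelial markers 4 rose after MI with vehicle (1 without mouse 3) and 3 fell with prednisone after MI (3 without it), while with rescaling none rose, none fell and Vwf was higher with prednisone. Over all tested genes 15.1% were called higher after MI with vehicle and 34.9% lower with prednisone after MI. The shares called in either direction were 7.34% and 31.6% without mouse 3, and 7.44% and 28.8% with rescaling. Atrial cardiomyocyte markers (4 genes) summed to 845 to 2686 TPM in sham hearts, to 2802 to 4106 TPM in MI vehicle and to 4335 to 6173 TPM in MI prednisone. Of these Nppa rose after MI with vehicle, and Myl7, Myl4 and Sln rose with prednisone after MI, with and without mouse 3. The higher sum in MI vehicle came from Nppa. Means of Myl7, Myl4 and Sln were lower there, at 307.7, 244.0 and 31.89 TPM, than in sham vehicle, at 445.5, 341.3 and 47.98 TPM. MI vehicle mouse 2 was far the lowest, at 64.0, 49.9 and 7.14 TPM, while MI vehicle mice 1 and 3 lay within the sham vehicle range for all 3 genes. The part of each cell type in the MHC values was not tested.

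**Figure D5:**
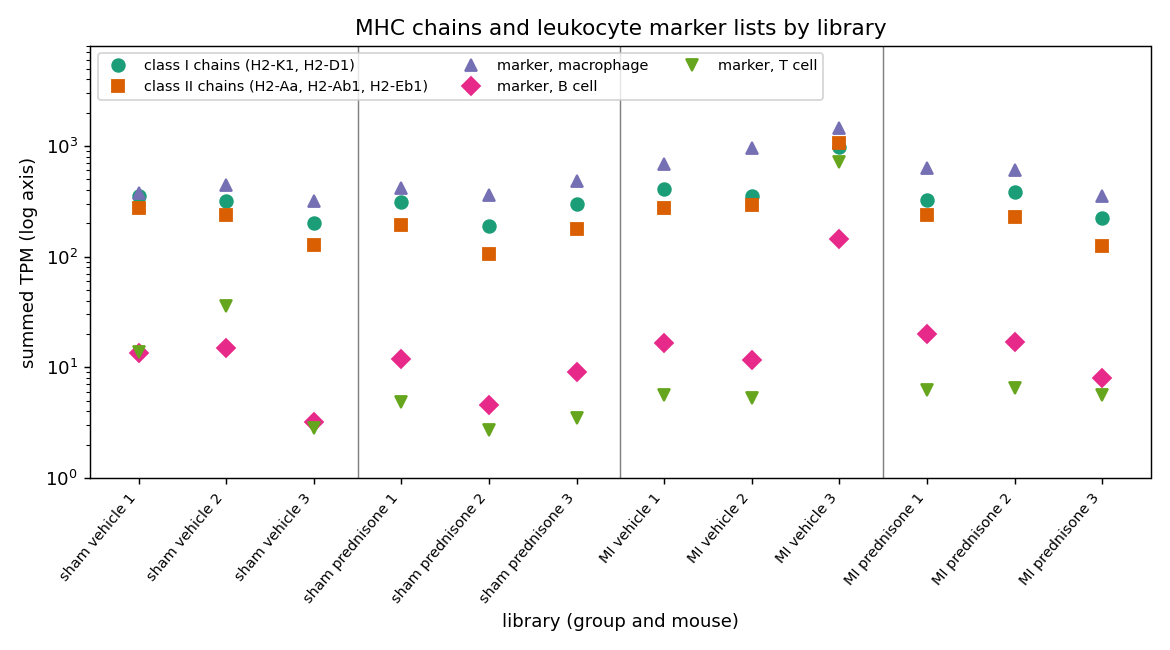
Summed TPM, on a log axis, of the class I chains, the class II chains and the macrophage, B cell and T cell marker lists in each of the 12 libraries, ordered by group and mouse. T cell markers reach 721 TPM in MI vehicle mouse 3 and at most 35.7 TPM elsewhere, while in MI vehicle mice 1 and 2 the macrophage sums are 692 and 956 TPM and the class II sums 273 and 295 TPM.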

How the data were processed

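RNA was sequenced from stranded mRNA libraries of 12 hearts, per the labels' protocols. The authors deposited TPM per transcript (105129 transcripts, each library summing to 1000000). Trimmomatic, HISAT2, kallisto and mm10 are named in the submitters' processing notes; their roles and versions are not given in the sources used here. TPM are shares of a library: depth is unknown, a few abundant RNAs can lower all other values, and near-identical genes can exchange reads.

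Transcripts were summed by symbol, and the 13158 genes at 1 TPM or more in 3 or more of the 12 libraries were tested. Differences are on log2(TPM + 1), which understates changes of low genes, from limma 3.58.1 in R 4.3.3 (eBayes with trend, 4 group means, 12 libraries), with Benjamini-Hochberg adjustment over all tested genes in each of 5 comparisons and a threshold of 0.05. The fit was tested on simulated data. Groups came from the titles. Every MHC gene above the filter is named, and pathway genes outside the rule may be named where called. Transcript lengths and words came from GENCODE M21 (GRCm38), where 98.6% of transcript identifiers were found without their version, and covered 99.7% of the tested genes. Matching without the version was chosen after the data were seen. Promoter windows and their coordinates came from RefSeq (GRCm38.p6).

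The genes and lists were chosen with earlier results of these data known. The list of developing T cell genes, the motif spacing, and the combination of leaving out MI vehicle mouse 3 with rescaling were added after the data were seen. The other alternatives are given in the closing section.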

Additional observations from a re-analysis of the deposited data

Results flagged for a closer look

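The effect of prednisone on Tapbp, which encodes tapasin, differed between infarcted and sham hearts by the interaction test. The prednisone difference after MI minus that after sham surgery was -1.12 on the log2 scale (limma adjusted p = 0.0245). Tapbp was at 51.5, 52.4 and 85.3 TPM in MI vehicle and at 38.1, 35.8 and 28.6 TPM in MI prednisone, against 31.5, 42.0 and 28.0 TPM and 44.5, 36.9 and 41.3 TPM in the corresponding sham groups. The term was -0.88 without MI vehicle mouse 3 (limma adjusted p = 0.0220), -0.58 after rescaling to the median gene (0.0605) and -0.42 for the most abundant transcript alone (0.384). With 3 mice in each group, no single mouse could be tested as extreme.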

How the results depend on the processing

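Counts of called MHC genes were small and changed with the processing, as did the counts over all tested genes. The latter are of 13158 genes, except 23629 with no filter, 13136 with genes removed and 13122 with length correction. For MI against sham with vehicle the 1 call became 0 with median-ratio scaling, no filter, the most abundant transcript, the replicate block, only the groups compared, and length correction with and without the replicate block. Calls over all tested genes went from 2100 to 979, 1068, 1682, 1056 and 2 in that order, and to 95 and 742 with length correction. For MI against sham with prednisone the 0 became 3 with median-ratio scaling and 1 with mitochondrial, nuclear-copy and haemoglobin genes removed. Calls over all tested genes went from 2213 to 3417 and 3715. For prednisone against vehicle after MI the 2 became 6 with mitochondrial, nuclear-copy and haemoglobin genes removed, 1 with no filter, 4 with the most abundant transcript, 1 with the replicate block and 0 with only the groups compared. Calls over all tested genes went from 4917 to 5548, 4263, 4972, 4434 and 808 in that order. The interaction went from 1 to 0 with median-ratio scaling, no filter, the most abundant transcript, and length correction with and without the replicate block. Calls over all tested genes went from 2797 to 1323, 1939, 2764, 98 and 275 in that order. Without MI vehicle mouse 3 and with median-ratio scaling, chosen after seeing the data, the counts were 0, 4, 2 and 0 for these 4 comparisons. Over all tested genes they were 607, 4639, 3565 and 1592. Leaving out each mouse in turn gave 0 to 11, 0 to 1, 1 to 8 and 0 to 2 calls, and 0 for prednisone in sham. Over all tested genes the same fits gave 120 to 5631, 1027 to 3971, 3245 to 6274 and 1111 to 4520 calls, and 4 to 18 for prednisone in sham. The 11 and the 8 came without MI vehicle mouse 1, when 5631 and 6274 of all 13158 tested genes were called. The 0 for MI with vehicle came without MI vehicle mouse 3 or sham vehicle mouse 1 or 3, and the 1 for prednisone after MI without MI prednisone mouse 1 or 2 (without MI vehicle mouse 2 it was 6). For the interaction the 2 came without any 1 of the MI vehicle mice, and the 0 without mouse 1 or 3 of either sham group. The 1 for MI with prednisone came without MI vehicle or MI prednisone mouse 3. Mean correlations of same-numbered deviations from the group means were -0.373, -0.05, -0.249 and 0.003 in the 4 comparisons other than the interaction. The titles do not say whether equal numbers mark paired mice, and what the losses under the block mean was not tested. The direction reversed for Tapbp with the most abundant transcript (-0.007 for prednisone in sham and 0.244 for MI with prednisone, neither called) and for H2-K1 with prednisone after MI without MI vehicle mouse 3 and with median-ratio scaling (0.028). Tapbp with prednisone after MI was called in 20 of 24 settings, at -0.96 to -0.35, and in 13 of 24 for MI with vehicle. The cause of these changes was not tested. Depth is unknown from TPM, so low genes such as H2-Oa and H2-T10 have no counting error.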
